A study of Mus musculus with 12 samples.

Results

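The comparison described here is that of interscapular brown adipose tissue (iBAT) from mice kept at 4 °C for 24 h with iBAT from mice kept at 22 °C, all on the control diet (NCD). It used 6 of the 12 iBAT libraries of the series, chosen by their labels alone, with 3 libraries at each temperature. The mice were wild type C57BL/6N and 20 weeks old, and their sex is not given in the sources used here. The other 6 libraries came from mice on a high-fat diet (HFD), which began at 8 weeks of age and lasted 12 weeks, at the same pair of temperatures. They share the estimate of the spread with the NCD libraries and otherwise enter only where the 2 diets are set side by side. Total RNA was sequenced, and the values are estimated counts per gene. Each library is a whole tissue sample, so fewer cells of a type and less RNA per cell cannot be told apart. The sources used here do not say that each library came from its own animal, so p-values measure the spread between these samples.

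Brown adipocytes turn fuel into heat. Noradrenaline from sympathetic nerves acts on beta-adrenergic receptors, raises cAMP and starts the breakdown of stored triglyceride, and the released fatty acids feed mitochondria and open UCP1, a carrier that lets protons return to the matrix without making ATP. The tissue also takes up fatty acids from lipoproteins and glucose from blood, rebuilds its droplets while it burns them, and depends on its vessels and matrix. The genes behind these processes, beyond the usual thermogenic markers, are taken in turn below.

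Of 61210 genes in the table, 16737 were counted highly enough to be tested. A gene is called higher or lower here when its Benjamini-Hochberg adjusted p in edgeR's quasi-likelihood test was under 0.05 and its absolute log2 fold change over 0.5. With this rule 623 genes were higher at 4 °C (3.72% of those tested), with a median fold of 1.77, and 426 were lower (2.55%), with a median fold of 2.01, so that 6.27% of tested genes were called (7.42% without the minimum fold change). These percentages are the background against which each group of genes is read below, together with the median log2 fold change of -0.01 over all tested genes. Nearly all genes in these groups are coding genes. Of 13196 tested coding genes 7.06% were called (561 higher and 370 lower), against 3.38% of long noncoding RNA (lncRNA) genes. The coding share is thus the closer background. The 6 libraries held 17875415 to 46740702 counts, and replicate 3 of each group came from the second of 2 batches and was the deepest. Leaving out 1 library at a time gave 490 to 1112 called genes, and 261 of the higher and 103 of the lower genes were called in all 12 such fits. With replicate number as a block, 750 genes were higher and 733 lower (4.48% and 4.38%, 8.86% in all), so the pairing moved the lower count most. No called gene changed sign in any of the fits tried. For 27.8% of tested genes the libraries at 4 °C did not overlap those at 22 °C (15.2% higher, 12.6% lower). Among called genes this held for 621 of 623 higher and 426 of 426 lower genes, so a lack of overlap adds little to a call. Levels are given in CPM, the counts of a library scaled to a common total with edgeR's TMM method, in the order of replicates 1, 2 and 3, and fold changes as log2 of 4 °C over 22 °C with n = 3 libraries per group.

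The labelled tissue was checked against marker genes of the cell types it can hold. Summed over 10 brown adipocyte markers, the level was 15500, 12700 and 13000 CPM at 22 °C and 31800, 27800 and 29300 CPM at 4 °C, and 3 of the 10 were called higher. Ucp1 alone was at 4804, 3789 and 4016 CPM at 22 °C and 18810, 15320 and 14940 CPM at 4 °C, most of the rise of the sum. The median log2 fold change of the 10 markers was 0.29, with 8 above 0 and 2 below. Skeletal muscle, which lies next to this depot, stood out in the replicates numbered 2. The sum over 17 muscle markers was 3550, 21700 and 4500 CPM at 22 °C and 1820, 12100 and 1540 CPM at 4 °C, so at each temperature replicate 2 was far above the others. No muscle marker was called by edgeR or DESeq2 without the block (0 had an unadjusted edgeR p under 0.05), and 13 of 17 were lower with it. The 11 fibroblast and preadipocyte markers summed to 1240, 1470 and 1870 CPM at 22 °C and 656, 731 and 647 CPM at 4 °C, without overlap. Of these 11, 4 were called lower, a number that ranged over 0 to 5 with 1 library left out, and 7 were lower with the block. The 10 tested endothelial markers summed to 818, 681 and 828 CPM at 22 °C and 1010, 1050 and 931 CPM at 4 °C, and 1 of them was called. Their part in the results below was not tested beyond 1 check, a fit without both replicates numbered 2, in which 131 genes were higher and 37 lower, all among those called with every library. Leaving out 22 °C replicates 1, 2 or 3, 4 °C replicates 1, 2 or 3 or HFD 22 °C replicates 1 or 2 moved at least 1 of these counts by over 1.5 times. Most of the called genes named below lost their call without both replicates numbered 2, with edgeR adjusted p of up to 0.193 (Irs2). Among them were Igf1, Bmp8b, Col12a1, Kit, Slc25a10, Angpt1 and Rbp7 (edgeR adjusted p 0.0507 to 0.0976 in that fit). Others kept it, among them Lpl, Gk and Gmpr.

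**Figure D1:**
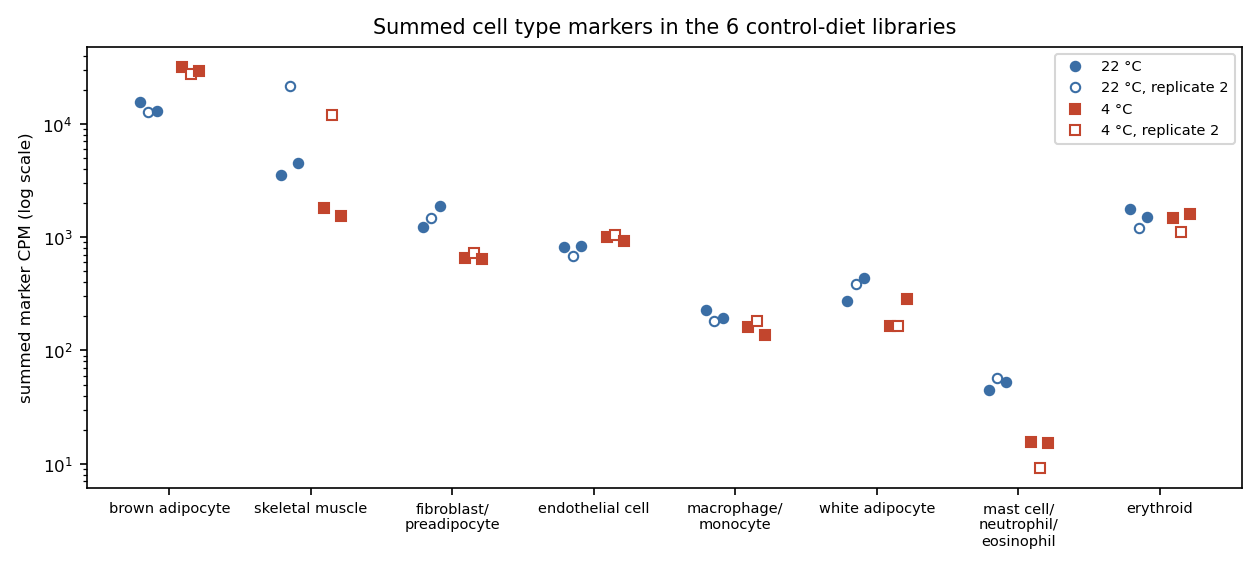
Summed CPM of the markers of each cell type (log axis) in the NCD libraries, 3 for each temperature, with replicate 2 drawn as an open symbol. Brown adipocyte sums, which include Ucp1, run from 12700 to 15500 CPM at 22 °C and from 27800 to 31800 CPM at 4 °C, and muscle sums are highest in replicate 2 at both temperatures.

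Several genes that bring fatty acids into the cell were higher in the cold. Of 26 tested genes of lipoprotein lipolysis and fatty acid uptake, 8 were higher and 0 lower (1 lower with the block), with a median log2 fold change of 0.35, and 6 of the 8 were called in all 12 fits with 1 library left out. Without both replicates numbered 2, 6 were higher. Lpl, the lipase that frees fatty acids from lipoproteins at the vessel wall, stood at 1866, 2560 and 2311 CPM at 22 °C and 5601, 6879 and 5519 CPM at 4 °C. The Lpl gene lies at chr8:68880491-68907448, plus strand (GRCm38, GENCODE M21), and its rise was larger than the spread between libraries (log2 fold change 1.42, SE 0.15, edgeR adjusted p = 0.000535). Fabp3, a fatty acid binding protein of oxidative tissues, measured 347, 341 and 340 CPM at 22 °C and 906, 1247 and 1372 CPM at 4 °C (log2 fold change 1.78, SE 0.18, edgeR adjusted p = 0.000498). Both synthetases that trap fatty acids as acyl-CoA in this list and were called rose as well: Acsl5 was at 838, 716 and 852 CPM at 22 °C and 1990, 1841 and 2404 CPM at 4 °C (log2 fold change 1.37, SE 0.18, edgeR adjusted p = 0.0015), and Acsl1 went from 2877 ± 134 to 4998 ± 268 CPM (SD, n = 3; log2 fold change 0.80). For all 4 genes each library at 4 °C was above each library at 22 °C.

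Some of the enzymes that rebuild triglyceride were higher too. In the list of triglyceride synthesis and glyceroneogenesis, 5 of 19 genes were higher and none lower (median 0.54). The count was 3 to 7 with 1 library left out, 8 with the replicate block and 3 without both replicates numbered 2. Gk (chrX:85701937-85776819, minus strand), glycerol kinase, which lets the cell reuse the glycerol of its own lipolysis, stood at 127, 203 and 176 CPM at 22 °C and 1033, 1122 and 1007 CPM at 4 °C. This rise of 2.64 on the log2 scale had an SE of 0.18 and an edgeR adjusted p of 5.1e-05. Gpam and Gpat4 catalyse the first acylation of glycerol 3-phosphate, at the outer mitochondrial membrane and in the endoplasmic reticulum. Gpam was at 709, 713 and 747 CPM at 22 °C and 2095, 2173 and 1770 CPM at 4 °C (log2 fold change 1.48, SE 0.17, edgeR adjusted p = 0.000878), and Gpat4 at 269, 258 and 272 CPM at 22 °C and 559, 663 and 604 CPM at 4 °C (log2 fold change 1.19, SE 0.12, edgeR adjusted p = 0.000535). Neither pair of groups overlapped. Gpd1, the most abundant tested member, which makes glycerol 3-phosphate from glycolysis, had a log2 fold change of 0.71 and did not pass (edgeR adjusted p = 0.0612), although DESeq2 called it higher. Among 20 lipases and droplet proteins 6 were higher and none lower (1 lower with the block), but 1 of them held its call in all 12 fits and the count ranged over 1 to 6. The 1 that held was Lipa, lysosomal acid lipase, at 192, 159 and 166 CPM at 22 °C and 426, 370 and 359 CPM at 4 °C (log2 fold change 1.16, SE 0.14, edgeR adjusted p = 0.00103). The shifts of over 1.5 times came without 22 °C replicates 1, 2 or 3, 4 °C replicates 2 or 3 or HFD 4 °C replicate 3.

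**Figure D2:**
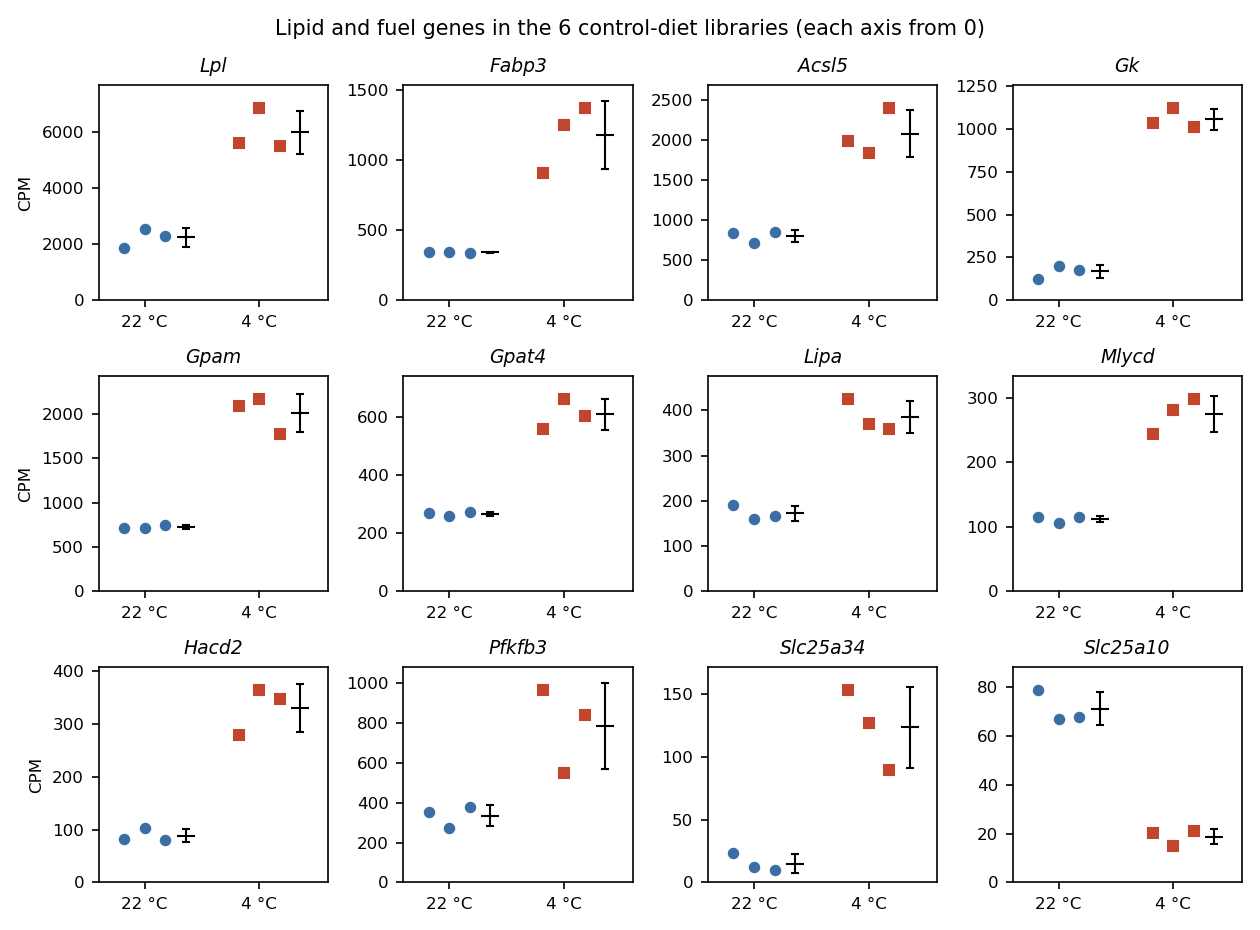
CPM of 12 genes of fuel handling in each NCD library (vertical axes in CPM), with circles for 22 °C, squares for 4 °C and bars for the mean ± SD of 3 libraries. In 11 panels the 4 °C squares lie above the 22 °C circles, and for Slc25a10 they lie below.

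Mitochondrial beta-oxidation had calls as well. Of 29 tested, 6 were higher and none lower (median 0.22), 4 of them in all 12 fits and 1 of them without both replicates numbered 2. These include steps that govern entry. Mlycd, which removes malonyl-CoA, an inhibitor of fatty acid entry into mitochondria, was at 115, 106 and 115 CPM at 22 °C and 244, 281 and 299 CPM at 4 °C (log2 fold change 1.29, SE 0.14, edgeR adjusted p = 0.000778). Slc22a5, the carnitine importer, went from 63 ± 7.46 to 114 ± 4.31 CPM (SD, n = 3; log2 fold change 0.85), and Crat, carnitine acetyltransferase, from 965 ± 55.8 to 1453 ± 58.8 CPM (SD, n = 3; log2 fold change 0.59). Hadhb, a subunit of the trifunctional protein that carries out the last steps of the cycle and the most abundant tested member, did not pass (log2 fold change 0.21, SE 0.16, edgeR adjusted p = 0.517). Peroxisomes, which shorten very long chains, gave 9 higher genes and 1 lower of 34, 3 and 1 of which held in all 12 fits. The higher count ranged over 4 to 9, and without both replicates numbered 2 it was 0, as was the lower count. The single lower gene was Abcd2, a peroxisomal importer of very long chain acyl-CoA, at 159, 151 and 173 CPM at 22 °C and 64.7, 47.7 and 93.4 CPM at 4 °C (log2 fold change -1.23, SE 0.24, edgeR adjusted p = 0.0116). Pex14, part of the dock for proteins entering the peroxisome, went from 79.2 ± 5.14 to 126 ± 10.5 CPM (SD, n = 3; log2 fold change 0.67). Shifts of more than 1.5 times followed the loss of 22 °C replicates 1, 2 or 3 or 4 °C replicate 2.

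Enzymes that cleave or form acyl-CoA had the highest share of calls among the metabolic lists: 9 of 29 acyl-CoA thioesterases and synthetases were higher and 4 lower, which is 44.8% against 6.27% of all tested genes. Acsl1 and Acsl5 are in this list as well. Of these, 5 and 1 held in all 12 fits, the higher count ranged over 5 to 10, and the lower count over 1 to 4. Without both replicates numbered 2 the counts were 2 and 0. Acot8, a peroxisomal thioesterase, stood at 13.6, 13.9 and 14.9 CPM at 22 °C and 25.3, 33.6 and 35 CPM at 4 °C (log2 fold change 1.15, SE 0.19, edgeR adjusted p = 0.00518). Acsm5, a mitochondrial synthetase for medium-chain acids, went the other way, with 3.17, 4.01 and 3.5 CPM at 22 °C and 1.09, 0.765 and 1.47 CPM at 4 °C (log2 fold change -1.65, SE 0.32, edgeR adjusted p = 0.0121). Counts moved by over 1.5 times without 22 °C replicates 1 or 3 or 4 °C replicate 2.

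The calls in the list of fatty acid synthesis were downwards. None of 15 tested genes of fatty acid synthesis was higher and 2 were lower (13.3% called, above the share of all tested genes). The median was -0.40, with 11 genes below 0 and 4 above. The lower count ranged over 1 to 4 with 1 library left out. It was 3 with the block, 4 with DESeq2 and 0 without both replicates numbered 2. The higher count was 1 with DESeq2 and without 4 °C replicate 2. Slc25a1, the carrier that exports citrate from mitochondria for lipid synthesis, fell from 1158, 983 and 1209 CPM to 468, 383 and 654 CPM (log2 fold change -1.15, SE 0.22, edgeR adjusted p = 0.010). Fasn, fatty acid synthase, did not pass at 58380, 54550 and 61530 CPM at 22 °C and 44070, 38320 and 45030 CPM at 4 °C (log2 fold change -0.45, SE 0.29, edgeR adjusted p = 0.422). Scd1, which makes monounsaturated from saturated acyl-CoA, had a log2 fold change of -0.86 (edgeR adjusted p = 0.0701) and was called lower with the replicate block (log2 fold change -0.89, edgeR adjusted p = 0.0391) and by DESeq2. In the list of elongases and desaturases 4 of 18 were higher and 1 lower, 2 of the higher genes in all 12 fits, with a higher count of 2 to 4 with 1 library left out and a lower count of 0 to 2. The block gave 3 lower genes. Hacd2, the dehydratase of the elongation cycle, was at 81.7, 102 and 80.5 CPM at 22 °C and 278, 365 and 347 CPM at 4 °C (log2 fold change 1.90, SE 0.17, edgeR adjusted p = 0.000298). In cholesterol synthesis 1 of 20 genes was higher, 6 with the replicate block and 1 to 3 when 1 library was left out. It was Hsd17b7, which acts late in the pathway, at 15.1, 23.7 and 18.9 CPM at 22 °C and 43.6, 40.2 and 51.4 CPM at 4 °C (log2 fold change 1.23, SE 0.16, edgeR adjusted p = 0.00189). Pcyt2, of phosphatidylethanolamine synthesis, went from 140 ± 15.1 to 250 ± 31.2 CPM (SD, n = 3; log2 fold change 0.84), and Cerk, ceramide kinase, from 13.1 ± 0.399 to 25.1 ± 3.4 CPM (SD, n = 3; log2 fold change 0.95). Leaving out 22 °C replicates 1, 2 or 3, 4 °C replicates 1, 2 or 3 or HFD 22 °C replicates 1 or 3 moved at least 1 of these counts by over 1.5 times.

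Carbohydrate genes moved at a few control points. Of 27 genes of glucose uptake and glycolysis 6 were higher and none lower (median 0.21, 3 lower with the block), but 1 held in all 12 fits and the count ranged over 1 to 6. That gene was Pfkfb3, which makes fructose 2,6-bisphosphate, an activator of glycolysis, at 352, 275 and 377 CPM at 22 °C and 968, 549 and 840 CPM at 4 °C (log2 fold change 1.23, SE 0.22, edgeR adjusted p = 0.00851). In pyruvate oxidation and the citrate cycle 2 of 29 were higher and 1 lower, with a higher count of 1 to 2. Pdp2, a phosphatase that switches on pyruvate dehydrogenase, was at 128, 121 and 122 CPM at 22 °C and 240, 294 and 215 CPM at 4 °C (log2 fold change 1.01, SE 0.19, edgeR adjusted p = 0.00966). Pcx, pyruvate carboxylase, which refills the citrate cycle, fell from 1256 ± 114 to 807 ± 63 CPM (SD, n = 3; log2 fold change -0.64, SE 0.12, edgeR adjusted p = 0.0104). The list of glycogen metabolism was split, with 3 higher and 3 lower of 26, 7 lower with the block. Its higher count was 1 to 3, its lower count 0 to 3. Gsk3a, a kinase that inhibits glycogen synthase, went from 75.5 ± 3.95 to 127 ± 15.1 CPM (SD, n = 3; log2 fold change 0.75). Breakdown of branched-chain amino acids, a fuel of this tissue, gave 2 higher and no lower of 21 genes, in each of the 12 fits. That is 9.52% called, and the list did not rise as a whole, with a median of -0.04 and 14 genes below 0. The 2 higher genes were Mcee, methylmalonyl-CoA epimerase (54 ± 4.53 to 125 ± 12.1 CPM, log2 fold change 1.22), and Dbt, a subunit of the branched-chain ketoacid dehydrogenase (158 ± 9.73 to 293 ± 60.2 CPM, log2 fold change 0.89). No gene of the pentose phosphate pathway and NADPH list was called among 17 tested, by edgeR or DESeq2, and 1 had an unadjusted edgeR p under 0.05. The shifts of over 1.5 times came without 22 °C replicates 1, 2 or 3, 4 °C replicates 1, 2 or 3, HFD 22 °C replicate 2 or HFD 4 °C replicate 3.

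Mitochondrial genes are taken by role. No subunit of a respiratory complex was called: 0 of 38 for complex I, 0 of 4 for complex II, 0 of 10 for complex III, 0 of 16 for complex IV and 0 of 17 for ATP synthase, with medians of 0.08, 0.00, 0.04, 0.01 and 0.01. These 0 calls were edgeR's, and DESeq2, the block and each left-out library gave 0 as well, while 2 complex I subunits and 1 of complex III had an unadjusted edgeR p under 0.05. Cycs, cytochrome c, was at 1552, 1297 and 1337 CPM at 22 °C and 1861, 1628 and 1746 CPM at 4 °C, and its log2 fold change of 0.32 did not pass. Genes that build and supply the complexes had calls. Of 48 genes for assembly of the complexes and coenzyme Q synthesis 7 were higher, of 36 for protein import 8, of 78 mitochondrial ribosomal proteins 6 and of 39 for mitochondrial transcription, translation and DNA upkeep 5, and none was lower (1 of the upkeep list was without 4 °C replicate 1). Against 3.72% of all tested genes, the ribosomal proteins were the nearest to the background, at 7.69%, and import the farthest, at 22.2%. Members that held in all 12 fits numbered 2, 3, 2 and 3. The counts ranged over 2 to 6 for assembly, over 3 to 9 for import, over 2 to 7 for the ribosome, and over 4 to 6 for transcription and DNA upkeep. Without both replicates numbered 2 the higher counts were 1, 0, 1 and 1, in the same order, with medians of 0.23, 0.36, 0.20 and 0.21. With every library these medians were 0.26, 0.34, 0.20 and 0.23. Shifts of more than 1.5 times followed the loss of 22 °C replicates 1, 2 or 3 or 4 °C replicates 1, 2 or 3.

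Sco2, which delivers copper to complex IV, was at 14.7, 11.7 and 13.5 CPM at 22 °C and 26.8, 33 and 25.1 CPM at 4 °C (log2 fold change 1.09, SE 0.13, edgeR adjusted p = 0.00122), and Coq10b, a coenzyme Q binding protein, at 39.1, 43.7 and 47.8 CPM at 22 °C and 78.2, 88.3 and 82.4 CPM at 4 °C (log2 fold change 0.93, SE 0.16, edgeR adjusted p = 0.00734). In both, all 4 °C libraries were above all 22 °C libraries. Of the import genes, Chchd4, which oxidises proteins entering the intermembrane space, went from 37.1 ± 3.4 to 56 ± 1.24 CPM (SD, n = 3; log2 fold change 0.59), Timm8a1, a small chaperone of that space, from 36.6 ± 2.28 to 60.6 ± 5.65 CPM (SD, n = 3; log2 fold change 0.73), and Pam16, part of the import motor, from 31.4 ± 2.56 to 47.4 ± 3.1 CPM (SD, n = 3; log2 fold change 0.60). Tfam, which packages and transcribes mitochondrial DNA, stood at 41.8, 43.6 and 45.2 CPM at 22 °C and 66, 64.8 and 74.3 CPM at 4 °C (log2 fold change 0.65, SE 0.08, edgeR adjusted p = 0.0015). Ears2, which charges mitochondrial tRNA with glutamate, went from 14 ± 0.677 to 21.2 ± 2.01 CPM (SD, n = 3; log2 fold change 0.60). Mrpl47 and Mrpl46, of the large ribosomal subunit, had log2 fold changes of 0.68 and 0.72. Genes encoded in mitochondrial DNA were not analysed here.

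**Figure D3:**
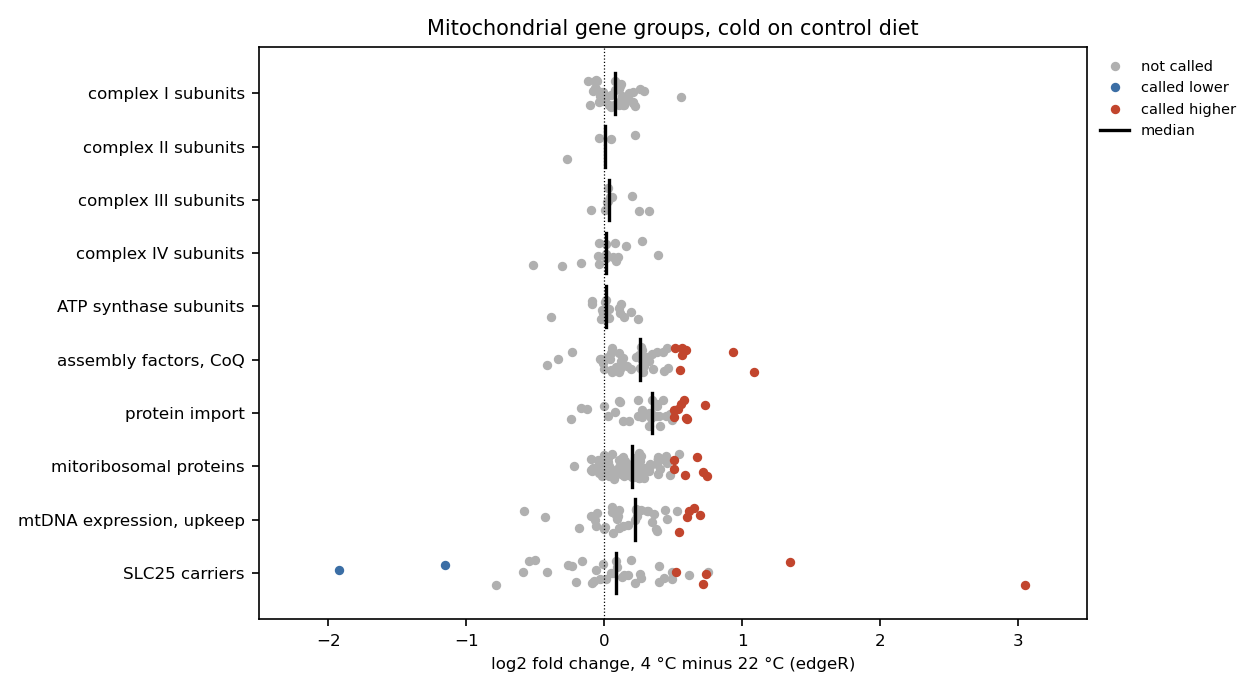
Log2 fold change of each tested gene (4 °C over 22 °C, horizontal axis) in groups of mitochondrial genes, with red for genes called higher, blue for genes called lower, gray for genes not called and a black mark for the median. The groups of complex subunits hold gray points only, with medians between 0.00 and 0.08, while assembly, import, ribosome and upkeep hold red points.

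Carriers and heat-producing cycles changed in single members. Of 40 SLC25 carriers of the inner membrane and related membranes 5 were higher and 2 lower, 8 and 3 with the block, and the higher count ranged over 3 to 7. Slc25a34 (chr4:141618824-141623821, minus strand), a carrier without an agreed substrate, was at 23.5, 12 and 9.62 CPM at 22 °C and 153, 127 and 89.5 CPM at 4 °C (log2 fold change 3.05, SE 0.35, edgeR adjusted p = 0.000838). Slc25a10, the dicarboxylate carrier, was at 79, 67 and 67.8 CPM at 22 °C and 20.2, 15.1 and 21.1 CPM at 4 °C (log2 fold change -1.92, SE 0.35, edgeR adjusted p = 0.00855). The first was thus higher in each cold library and the second lower in each. Slc25a17, which moves cofactors into peroxisomes, went from 91.7 ± 3.92 to 234 ± 22.1 CPM (SD, n = 3; log2 fold change 1.35), and Slc25a51, which brings NAD into mitochondria, from 610 ± 59.7 to 1001 ± 38.5 CPM (SD, n = 3; log2 fold change 0.71). In the list of creatine and calcium cycling, which can release heat by futile turnover, 2 of 23 were higher and 1 lower. Both higher genes held in all 12 fits. The lower count was 1 to 2, and 4 with the block. Ckb, brain-type creatine kinase, rose from 16, 10.6 and 14.2 CPM to 34.9, 80.9 and 61.1 CPM (log2 fold change 2.12, SE 0.27, edgeR adjusted p = 0.00141). Alpl, an alkaline phosphatase that can hydrolyse phosphocreatine, was at 24.5, 25.9 and 21.8 CPM at 22 °C and 45.8, 64.8 and 49.4 CPM at 4 °C (log2 fold change 1.15, SE 0.16, edgeR adjusted p = 0.00255). Gamt, the last enzyme of creatine synthesis, was at 5.04, 4.77 and 6.07 CPM at 22 °C and 0.975, 1.53 and 2.15 CPM at 4 °C (log2 fold change -1.74, SE 0.28, edgeR adjusted p = 0.00535). Counts moved by over 1.5 times without 22 °C replicates 1, 2 or 3, 4 °C replicates 1, 2 or 3 or HFD 4 °C replicate 3.

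Some protein folding genes were higher. Of 61 heat shock proteins and co-chaperones 7 were higher (median 0.27), and of 28 genes of folding in the endoplasmic reticulum 4 (median 0.33). None of either list was lower, except 1 of the second with DESeq2 and without 4 °C replicate 3 or HFD 22 °C replicate 2. With 1 library left out the higher counts were 2 to 8 and 1 to 4, and without both replicates numbered 2 they were 1 and 1. Hspa4, which reloads HSP70 chaperones, was at 197, 200 and 211 CPM at 22 °C and 341, 314 and 355 CPM at 4 °C (log2 fold change 0.73, SE 0.09, edgeR adjusted p = 0.000963). Dnaja3, a mitochondrial co-chaperone, was at 267, 267 and 279 CPM at 22 °C and 415, 506 and 584 CPM at 4 °C (log2 fold change 0.89, SE 0.13, edgeR adjusted p = 0.00321). Canx, calnexin, a lectin chaperone of the endoplasmic reticulum, was at 285, 309 and 317 CPM at 22 °C and 556, 490 and 584 CPM at 4 °C (log2 fold change 0.84, SE 0.12, edgeR adjusted p = 0.00267). Bulk protein turnover and synthesis lists held no call: 0 of 47 proteasome subunits, 0 of 82 cytosolic ribosomal proteins, 0 of 20 cytosolic aminoacyl-tRNA synthetases and 0 of 26 autophagy genes. Their numbers at an unadjusted edgeR p under 0.05 were 8, 6, 2 and 8, in the same order. The proteasome count reached 1 without 4 °C replicate 3 or HFD 22 °C replicates 1 or 3. The autophagy count reached 1 without 22 °C replicate 1, 4 °C replicate 3, HFD 22 °C replicate 1 or HFD 4 °C replicate 1 and with DESeq2, and 1 ribosomal protein was lower with the block. From the integrated stress response, Slc3a2, the heavy chain of several amino acid exchangers, was at 47.1, 36.7 and 36.5 CPM at 22 °C and 170, 175 and 99.1 CPM at 4 °C (log2 fold change 1.88, SE 0.26, edgeR adjusted p = 0.00207), while Nupr1, a small chromatin protein of stressed cells, was at 21, 19.4 and 20.4 CPM at 22 °C and 7.05, 6.3 and 8.31 CPM at 4 °C (log2 fold change -1.49, SE 0.23, edgeR adjusted p = 0.00467). Leaving out 22 °C replicates 1, 2 or 3 or 4 °C replicates 1, 2 or 3 moved at least 1 of these counts by over 1.5 times.

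Promoter sequence is shown for called chaperone and import genes that hold the motif searched for in their group to show how near to the start the motif lies. Windows run from 250 bases before to 50 after the start of each gene and were taken from RefSeq on GRCm38.p6, in 5′ to 3′ direction, with the motif in capitals. The endoplasmic reticulum motif, CCAAT and CCACG with 9 letters between them, was searched on both strands, and it was in 8 of 22 promoters of its list (36.4%) and in 0.137% of all 27025. It was present in Calr (chr8:84846882-84847181 on the minus strand, first base at -162 from the start, as its reverse complement) and Canx (chr11:50325624-50325923 on the minus strand, at -145). Calr, calreticulin, the soluble relative of calnexin, was at 218, 227 and 199 CPM at 22 °C and 367, 362 and 310 CPM at 4 °C (log2 fold change 0.69, SE 0.14, edgeR adjusted p = 0.0151). The heat shock motif, GAA, TTC and GAA or TTC, GAA and TTC with 2 letters between neighbours, forms that can overlap, was in 5 of 51 promoters (9.8%) against 0.662% of all, among them Hspe1 (chr1:55087898-55088197 on the plus strand, at -89 and -84) and Hspd1, whose window overlaps it on the opposite strand. The same stretch of DNA is thus counted for both genes among the 5. Hspe1 and Hspd1, the mitochondrial chaperonins, rose by log2 fold changes of 0.72 and 0.58 (edgeR adjusted p = 0.0221 and 0.0483). Calls were lost for Calr without 22 °C replicates 1 or 3 or 4 °C replicates 1 or 2 (largest edgeR adjusted p 0.0708, log2 fold change 0.64), Hspe1 without 22 °C replicates 1 or 2 or 4 °C replicates 1 or 3 (largest edgeR adjusted p 0.0932, log2 fold change 0.61) and Hspd1 without 22 °C replicates 1, 2 or 3, 4 °C replicates 1 or 3, HFD 22 °C replicates 2 or 3 or HFD 4 °C replicates 1, 2 or 3 (largest edgeR adjusted p 0.164, log2 fold change 0.52). The cAMP motif, TGACG followed by TCA, was in 2 of 16 immediate early promoters (12.5%), 1 of 29 of the cAMP effectors and feedback list (3.45%) and 0 of 10 of the list of cAMP production, against 2.03% of all, and the clock motif CACGTG in 5 of 17 (29.4%, against 8.09%). The sterol motif, TCAC and CCAC with 1 letter between them, was in 1 of 15 promoters of cholesterol synthesis (6.67%) and 0 of 12 of the sterol list, against 1.44% of all. No called gene of these lists held its motif. A motif is a run of letters and no evidence of binding, and its share is a description.
Calr: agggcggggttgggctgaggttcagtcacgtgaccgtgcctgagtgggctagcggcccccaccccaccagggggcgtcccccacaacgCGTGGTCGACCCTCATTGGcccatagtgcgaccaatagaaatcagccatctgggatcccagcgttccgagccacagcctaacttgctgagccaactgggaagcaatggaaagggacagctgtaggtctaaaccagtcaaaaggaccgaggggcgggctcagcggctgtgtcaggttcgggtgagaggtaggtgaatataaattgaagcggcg
Canx: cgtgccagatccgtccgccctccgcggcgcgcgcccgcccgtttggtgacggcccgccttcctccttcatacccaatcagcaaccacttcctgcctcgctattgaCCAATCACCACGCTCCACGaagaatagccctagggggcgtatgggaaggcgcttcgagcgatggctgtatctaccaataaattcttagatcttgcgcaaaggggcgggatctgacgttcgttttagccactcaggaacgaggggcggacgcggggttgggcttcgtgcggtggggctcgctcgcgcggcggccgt
Hspe1: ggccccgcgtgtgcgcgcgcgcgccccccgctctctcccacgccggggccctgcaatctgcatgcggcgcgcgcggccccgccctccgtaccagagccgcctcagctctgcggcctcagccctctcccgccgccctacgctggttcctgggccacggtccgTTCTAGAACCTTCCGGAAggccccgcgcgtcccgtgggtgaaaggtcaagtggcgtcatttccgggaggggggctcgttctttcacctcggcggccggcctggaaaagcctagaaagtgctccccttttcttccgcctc

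The import list was searched for TCAAGGTCA, the motif of estrogen-related receptors, on both strands, and 1 of 31 promoters held it (3.23%), against 0.466% of all. Of the other lists of respiration and mitochondria, complex II had it in 1 of 3 promoters, ATP synthase in 1 of 14 and the rest in none. The import promoter was that of Timm8b (chr9:50603651-50603950 on the plus strand, at -96), a small intermembrane space chaperone at 77.4, 71 and 63.3 CPM at 22 °C and 98.2, 104 and 104 CPM at 4 °C (log2 fold change 0.53, SE 0.11, edgeR adjusted p = 0.0172). Calls were lost for Timm8b without 22 °C replicates 2 or 3 or 4 °C replicate 2 (largest edgeR adjusted p 0.0793, log2 fold change 0.46).
Timm8b: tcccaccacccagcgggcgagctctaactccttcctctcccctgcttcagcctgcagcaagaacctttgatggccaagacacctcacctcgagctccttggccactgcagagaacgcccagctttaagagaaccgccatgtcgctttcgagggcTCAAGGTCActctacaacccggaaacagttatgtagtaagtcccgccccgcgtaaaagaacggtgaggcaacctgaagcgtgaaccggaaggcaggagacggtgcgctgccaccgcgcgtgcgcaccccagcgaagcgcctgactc

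Of 47 lysosomal genes 7 were higher and 2 lower, which is 19.1% against 6.27% of all tested genes. Members that held in all 12 fits numbered 4 and 1. The higher count ranged over 4 to 8, the lower count over 1 to 3. Without both replicates numbered 2 they were 2 and 1. Ctsz, a cathepsin, was at 165, 194 and 193 CPM at 22 °C and 515, 614 and 690 CPM at 4 °C (log2 fold change 1.72, SE 0.15, edgeR adjusted p = 0.000275), and Ctso, another cathepsin, at 23.4, 17.7 and 17.9 CPM at 22 °C and 10.8, 8.83 and 9.85 CPM at 4 °C (log2 fold change -1.0, SE 0.15, edgeR adjusted p = 0.00321). They moved in opposite directions without overlap. Both V-ATPase subunits that held, Atp6v0a2 and Atp6v1e1 of the proton pump that acidifies lysosomes, rose with log2 fold changes of 0.91 and 0.56. Antioxidant genes were divided, 3 higher and 3 lower of 43, the lower count 1 to 5. Prdx6, a peroxidase that also repairs oxidised phospholipid, went from 164 ± 10.8 to 313 ± 57.6 CPM (SD, n = 3; log2 fold change 0.94), and Gss, glutathione synthetase, from 13.8 ± 1.08 to 23.2 ± 2.51 CPM (SD, n = 3; log2 fold change 0.75). Gstm2, a glutathione transferase, was lower at 34, 29.4 and 32.8 CPM at 22 °C and 16.8, 16.8 and 17.9 CPM at 4 °C (log2 fold change -0.90, SE 0.10, edgeR adjusted p = 0.000838). Iron and copper handling changed in Slc11a2, an importer of ferrous iron (log2 fold change 0.74), in Steap4, a metalloreductase (log2 fold change -1.39), and in Cp, the ferroxidase ceruloplasmin (log2 fold change -0.83), 3 of the 4 called among 18. The higher count of the metal list ranged over 1 to 3. The shifts of over 1.5 times came without 22 °C replicates 1, 2 or 3, 4 °C replicates 1, 2 or 3, HFD 22 °C replicate 2 or HFD 4 °C replicates 1 or 3.

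Among signalling genes, some that act on or after cAMP were higher. Of 39 cAMP effectors and feedback genes 6 were higher and none lower (2 lower with the block), 4 in all 12 fits, and without HFD 22 °C replicate 1 or HFD 4 °C replicates 1 or 2 up to 2 were lower. Phosphodiesterases, which break down cyclic nucleotides and were counted after their values were seen, gave 3 higher and 12 not called of 15 in this list, and 1 lower with the block. One of them, Pde7b, was at 16.6, 29.4 and 18.2 CPM at 22 °C and 72.2, 99 and 74.4 CPM at 4 °C (log2 fold change 1.94, SE 0.27, edgeR adjusted p = 0.00209). Pde1c, which is activated by calcium and calmodulin, was at 0.622, 0.814 and 0.539 CPM at 22 °C and 3.04, 2.41 and 2.3 CPM at 4 °C (log2 fold change 1.99, SE 0.29, edgeR adjusted p = 0.00321). Pde3b, through which insulin restrains lipolysis, went from 386 ± 10.6 to 659 ± 61 CPM (SD, n = 3; log2 fold change 0.77). On the side of cAMP production 2 of 14 were higher in all 12 fits, among them the adenylyl cyclase Adcy4 (17 ± 3.29 to 30.4 ± 1.96 CPM, log2 fold change 0.83). Of 18 immediate early genes 2 were higher, a count of 0 to 3, and the block gave 5 higher and 1 lower. None of 20 clock genes was called by edgeR (3 had an unadjusted p under 0.05), 3 were higher with the block, and 1 was lower without 4 °C replicate 3 or HFD 4 °C replicate 1 and with DESeq2. Shifts of more than 1.5 times followed the loss of 22 °C replicates 2 or 3 or 4 °C replicates 1 or 2.

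Several receptors and secreted factors stood out. Ffar4, a receptor for long-chain fatty acids, was at 14.6, 8.31 and 18.9 CPM at 22 °C and 110, 135 and 44.2 CPM at 4 °C (log2 fold change 2.77, SE 0.40, edgeR adjusted p = 0.00287). Bmp8b, a secreted factor of brown fat, was at 3.23, 1.8 and 1.0 CPM at 22 °C and 9.92, 10.7 and 9.3 CPM at 4 °C (log2 fold change 2.36, SE 0.42, edgeR adjusted p = 0.0079). Igf1 (chr10:87858265-87937042, plus strand), insulin-like growth factor 1, was at 29.9, 35.3 and 37.6 CPM at 22 °C and 12.5, 10.9 and 10.5 CPM at 4 °C (log2 fold change -1.60, SE 0.22, edgeR adjusted p = 0.00207). The batokines, factors secreted by brown fat, gave 2 higher and 1 lower of 21 (14.3% called), 2 lower with the block, and a higher count of 1 to 3 with 1 library left out. Ffar4 and Bmp8b rose and Igf1 fell, without overlap between temperatures. Igfbp5, a carrier of IGFs, went from 127 ± 21.1 to 67.2 ± 4.52 CPM (SD, n = 3; log2 fold change -0.92). Of 29 genes of insulin and IGF signalling 3 were higher and 2 lower, and both lower genes held in all 12 fits, while the higher count was 0 to 4. Irs2, an adaptor of the insulin receptor, stood at 26.1, 17.8 and 15.2 CPM at 22 °C and 87.5, 134 and 29.5 CPM at 4 °C (log2 fold change 2.09, SE 0.45, edgeR adjusted p = 0.019), and the call was lost for Irs2 without 22 °C replicates 2 or 3 or 4 °C replicate 2 (largest edgeR adjusted p 0.0844, log2 fold change 1.94). Among 36 nuclear receptors 3 were higher and 3 lower. The lower count was 1 to 3, and the higher count 1 to 4. Nr3c2, the mineralocorticoid receptor, held in all 12 fits at 27.1, 31.6 and 28.3 CPM at 22 °C and 13.4, 12.3 and 17.4 CPM at 4 °C (log2 fold change -1.01, SE 0.17, edgeR adjusted p = 0.00596). Sgk1, a kinase controlled by corticosteroids, went from 55.6 ± 7.76 to 134 ± 15.3 CPM (SD, n = 3; log2 fold change 1.26), and Hr, a corepressor that binds the thyroid hormone receptor, from 25.8 ± 3.64 to 12.2 ± 2.59 CPM (SD, n = 3; log2 fold change -1.08). Counts moved by over 1.5 times without 22 °C replicates 1, 2 or 3, 4 °C replicates 1, 2 or 3 or HFD 4 °C replicate 3.

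**Figure D4:**
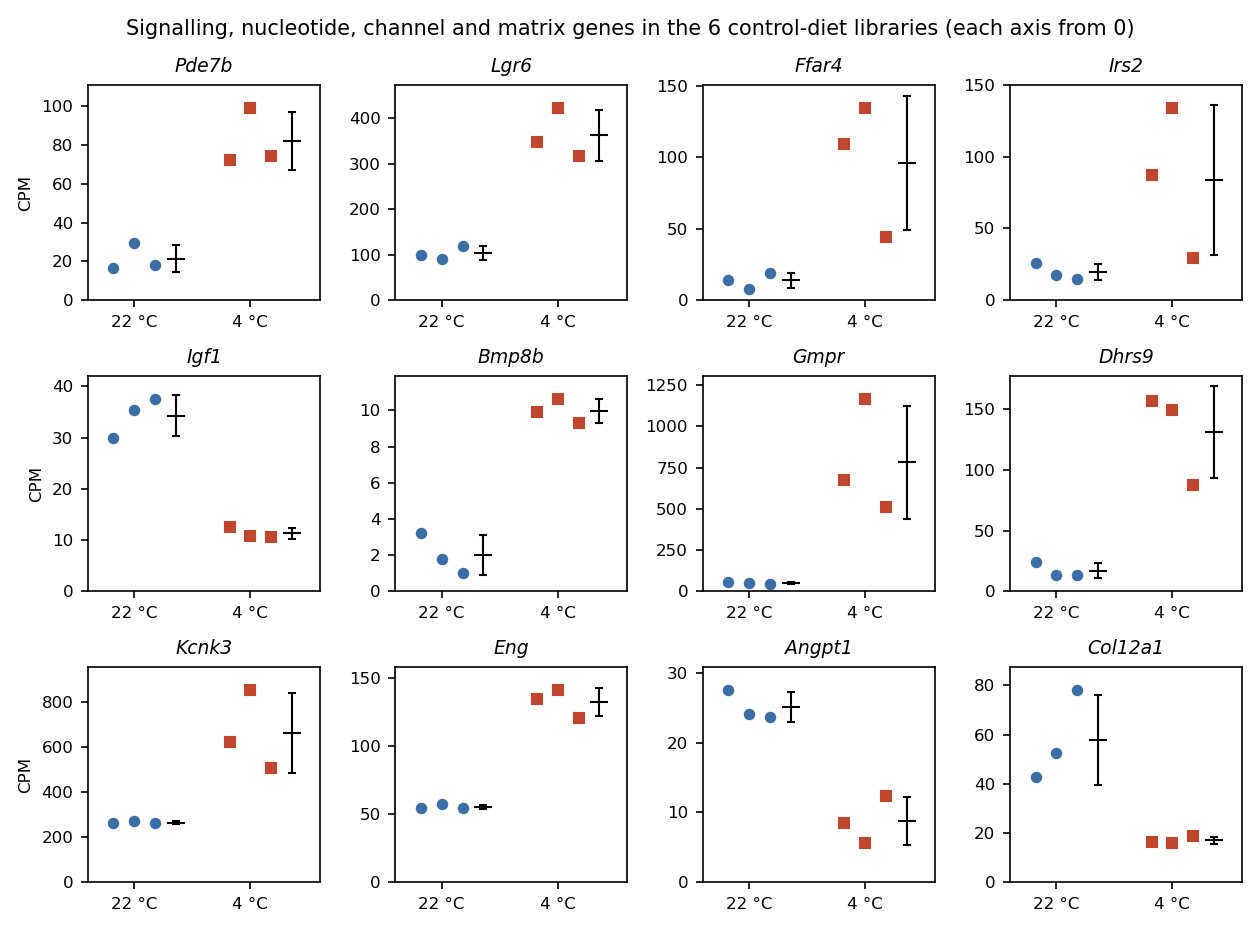
CPM of 12 genes of signalling, transport, vessel and matrix in each NCD library (vertical axes in CPM), with circles for 22 °C, squares for 4 °C and bars for the mean ± SD of 3 libraries. Igf1, Angpt1 and Col12a1 are lower in every library at 4 °C, and the other 9 genes are higher.

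Retinoid and nucleotide enzymes held some of the larger folds. Dhrs9, which oxidises retinol, was at 24.1, 13.6 and 13.3 CPM at 22 °C and 157, 150 and 88 CPM at 4 °C (log2 fold change 2.96, SE 0.37, edgeR adjusted p = 0.00136). Rbp7, a retinol-binding protein of adipose tissue and its vessels, was at 10.1, 8.14 and 11.6 CPM at 22 °C and 37, 45.8 and 29.1 CPM at 4 °C (log2 fold change 1.90, SE 0.29, edgeR adjusted p = 0.00368). Both rose, and the retinoid list had 4 higher and 2 lower of 19, with counts of 2 to 4 and 0 to 2 when 1 library was left out and 1 lower with the block. Gmpr (chr13:45507444-45553800, plus strand), which converts GMP to IMP, was at 56.3, 52.1 and 45.1 CPM at 22 °C and 672, 1168 and 509 CPM at 4 °C (log2 fold change 3.94, SE 0.34, edgeR adjusted p = 0.000275). Impdh1, which acts in the other direction from IMP, was lower at 65.6, 57 and 74 CPM at 22 °C and 25.6, 26.5 and 35.1 CPM at 4 °C (log2 fold change -1.17, SE 0.16, edgeR adjusted p = 0.00242). Cad, which begins pyrimidine synthesis, and Uck2, which salvages uridine and cytidine, rose by log2 fold changes of 0.79 and 0.94. The polyamine, nucleotide and NAD list gave 6 higher and 2 lower of 43, with a lower count of 1 to 2. Leaving out 22 °C replicates 1, 2 or 3, 4 °C replicates 1, 2 or 3, HFD 22 °C replicates 1 or 2 or HFD 4 °C replicates 1, 2 or 3 moved at least 1 of these counts by over 1.5 times.

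At the membrane, Kcnk3, a background potassium channel, was at 262, 272 and 262 CPM at 22 °C and 623, 854 and 508 CPM at 4 °C (log2 fold change 1.32, SE 0.20, edgeR adjusted p = 0.00347), 1 of 2 higher among 39 tested potassium channels (7.69% called in either direction). Their higher count was 1 to 2. Lrrc8b, a subunit of the volume-regulated anion channel, went from 13.8 ± 1.52 to 30.3 ± 1.42 CPM (SD, n = 3; log2 fold change 1.13), and Scn7a, a sodium channel, from 53.7 ± 1.23 to 27.8 ± 3.46 CPM (SD, n = 3; log2 fold change -0.95). Of 52 calcium, sodium, chloride and TRP channels 4 were higher and 2 lower, 6 lower with the block, with a higher count of 1 to 5. Of 40 aquaporins and carriers of monocarboxylates and other metabolites 6 were lower and 3 higher (1 and 3 in batch 1 alone, 1 and 2 in all 12 fits), with a lower count of 1 to 6. Slc16a7, a carrier of lactate and pyruvate, was at 31.4, 28.4 and 25.7 CPM at 22 °C and 10.6, 6.06 and 8.24 CPM at 4 °C (log2 fold change -1.78, SE 0.23, edgeR adjusted p = 0.00141). Cyp4b1 and Cyp2u1, cytochromes of fatty acid hydroxylation, rose with log2 fold changes of 1.41 and 0.82. They were the 2 higher of 22 tested cytochrome P450 enzymes, of which 2 were lower (median -0.08), a lower count of 0 to 2 and of 0 with the block. The shifts of over 1.5 times came without 22 °C replicates 1, 2 or 3 or 4 °C replicates 1, 2 or 3. The lower cytochrome count also moved without HFD 22 °C replicate 1 or HFD 4 °C replicates 1 or 3.

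Genes of the matrix were called mostly downwards. Of 33 collagen chains 9 were lower and 2 higher (median -0.74), and of 43 matrix proteins and glycoproteins 8 were lower and none higher (median -0.55). Among 58 matrix proteases, inhibitors and crosslinkers 5 were lower and 2 higher. The block gave 13, 17 and 10 lower genes. These counts depended on single libraries. The lower collagens numbered 2 to 14, the lower matrix proteins 1 to 12, and the lower proteases 0 to 6. Without both replicates numbered 2, 0 collagens were lower and 0 higher, 1 matrix protein was lower and 0 proteases were, while the medians were -0.76 for collagens and -0.60 for matrix proteins. Col12a1 (chr9:79598991-79718831, minus strand), a collagen that decorates fibrils, was at 42.9, 52.5 and 78.2 CPM at 22 °C and 16.5, 16.2 and 18.8 CPM at 4 °C (log2 fold change -1.75, SE 0.32, edgeR adjusted p = 0.00889). Col5a2, which sets fibril width, was at 70.2, 88.9 and 112 CPM at 22 °C and 36.1, 35.7 and 37.5 CPM at 4 °C (log2 fold change -1.31, SE 0.25, edgeR adjusted p = 0.0101). Both fell without overlap, as did the fibroblast marker sum given above, whose part in them was not tested. Matn2, a matrix adaptor protein, went from 37.2 ± 1.81 to 13.5 ± 3.33 CPM (SD, n = 3; log2 fold change -1.46), and Loxl1, a crosslinker of elastin, rose from 26.4 ± 1.32 to 49.3 ± 5.46 CPM (SD, n = 3; log2 fold change 0.90). Shifts of more than 1.5 times followed the loss of 22 °C replicates 1, 2 or 3, 4 °C replicates 1, 2 or 3, HFD 22 °C replicate 2 or HFD 4 °C replicate 1.

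Vessel and growth factor genes changed in both directions. Eng and Acvrl1, an endothelial co-receptor and receptor of the BMP family, were both higher. Eng was at 55, 57.4 and 54.6 CPM at 22 °C and 135, 142 and 121 CPM at 4 °C (log2 fold change 1.25, SE 0.17, edgeR adjusted p = 0.00202), and Acvrl1 went from 22.4 ± 2.18 to 33.5 ± 2.83 CPM (SD, n = 3; log2 fold change 0.58). Pdgfb, which draws pericytes to vessels, and Cxcl12, a chemokine, rose with log2 fold changes of 0.78 and 1.18, and Pecam1, an endothelial adhesion molecule and marker, with 0.58. The summed endothelial markers given above, 681 to 828 CPM at 22 °C and 931 to 1050 CPM at 4 °C, moved with these genes without overlap, all 10 tested markers had a log2 fold change above 0, and their part in it was not tested. Angpt1, a ligand that stabilises vessels fell from 27.6, 24 and 23.6 CPM to 8.43, 5.59 and 12.3 CPM (log2 fold change -1.50, SE 0.29, edgeR adjusted p = 0.0119). Of 28 angiogenic genes 3 were higher and 2 lower, with a lower count of 1 to 3 and of 1 with the block. Bmp3, a BMP antagonist, fell from 4.71 ± 0.661 to 1.41 ± 0.255 CPM (SD, n = 3; log2 fold change -1.73), and 4 of 53 BMP and TGF-beta genes were higher and 5 lower, the lower count 1 to 6. Lgr6, a receptor of R-spondins that strengthen WNT signals, was at 99, 91.9 and 120 CPM at 22 °C and 347, 424 and 317 CPM at 4 °C (log2 fold change 1.80, SE 0.19, edgeR adjusted p = 0.000594). It was 1 of 2 higher among 29 tested WNT genes, of which 1 was lower (median -0.25). Their higher count was 1 to 2 and their lower count 0 to 3. In the NOTCH list, Notch2, a receptor, and Mfng, an enzyme that modifies NOTCH receptors, were lower, with log2 fold changes of -0.76 and -1.19, among 3 lower and 2 higher of 19, with a higher count of 0 to 2. Counts moved by over 1.5 times without 22 °C replicates 1, 2 or 3, 4 °C replicates 1, 2 or 3, HFD 22 °C replicates 1, 2 or 3 or HFD 4 °C replicates 1, 2 or 3.

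**Figure D5:**
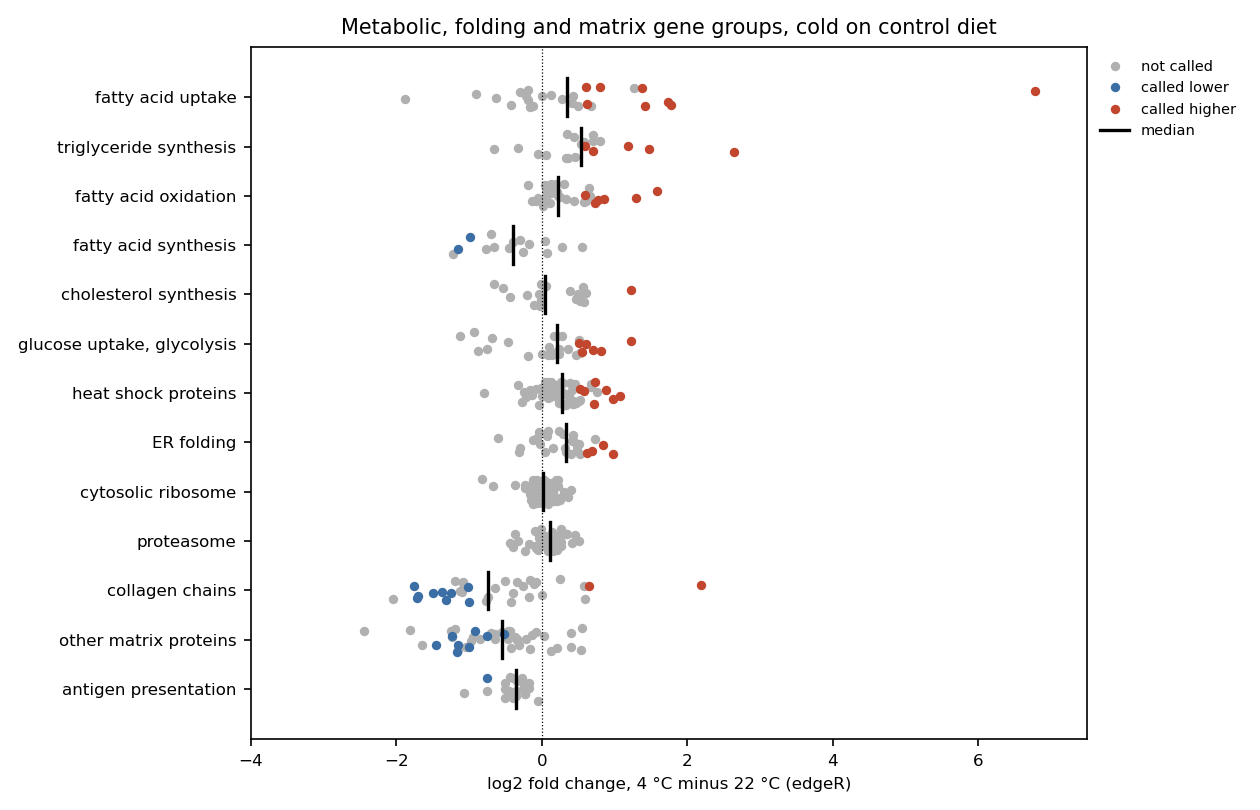
Log2 fold change of each tested gene (4 °C over 22 °C, horizontal axis) in groups outside the mitochondrion, with red for genes called higher, blue for genes called lower, gray for genes not called and a black mark for the median. Collagen chains, at a median of -0.74, lie to the left of 0, and fatty acid uptake, at 0.35, to the right.

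Some single genes had large folds. Cpne5, a calcium-dependent membrane-binding protein, was at 0.933, 1.05 and 0.71 CPM at 22 °C and 6.08, 14.7 and 9.52 CPM at 4 °C (log2 fold change 3.52, SE 0.36, edgeR adjusted p = 0.000535). Fer1l6, of the ferlin family of membrane proteins, was at 62.2, 32.5 and 40.5 CPM at 22 °C and 12.7, 3.47 and 10.5 CPM at 4 °C (log2 fold change -2.33, SE 0.42, edgeR adjusted p = 0.00838). Kit, the stem cell factor receptor, which also marks mast cells, fell from 39.1, 54.1 and 48.3 CPM to 11.3, 4.18 and 13.6 CPM (log2 fold change -2.27, SE 0.45, edgeR adjusted p = 0.0124). The summed markers of mast cells, neutrophils and eosinophils, Kit included, were at 44.7, 57.4 and 52.5 CPM at 22 °C and at 15.4, 9.24 and 15.1 CPM at 4 °C. Kit alone was called among the 7 tested and made up most of the sum in each 22 °C library, so the sum is no separate measure of these cells. The part of these cells in the fall of Kit was not tested. Trabd2b, a protease that acts on WNT proteins, had a log2 fold change of -2.07, Serpina3c, a serine protease inhibitor, one of -2.06, and Car3, a carbonic anhydrase abundant in adipocytes and muscle, one of -2.04. Mr1, which presents vitamin B metabolites to T cells, fell by 2.01 on the log2 scale. Of 25 tested antigen presentation genes 1 was called lower (4.0%), a count of 0 to 1. All 25 had a log2 fold change below 0, with a median of -0.36. Of 25 interferon-stimulated genes 2 were called lower (8.0%), a count of 0 to 2 (1 with the block), and 19 were below 0. Ccdc80, a secreted matrix protein, was at 121, 147 and 167 CPM at 22 °C and 31.2, 35.9 and 53.1 CPM at 4 °C (log2 fold change -1.85, SE 0.22, edgeR adjusted p = 0.00103). Cdh23, a cadherin, had a log2 fold change of -1.85. Leaving out 22 °C replicates 1, 2 or 3, 4 °C replicates 1, 2 or 3, HFD 22 °C replicates 1 or 2 or HFD 4 °C replicates 1, 2 or 3 moved at least 1 of these counts by over 1.5 times.

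The cold response of the same genes on HFD, in the 6 other libraries, was set beside that on NCD. By the adjusted edgeR test of the difference between diets no gene passed (0 of 16737, against 1091 at an unadjusted p under 0.05), while DESeq2 called 62 and the fit with the block 2. Slc25a34 had a log2 fold change of 3.05 on NCD and 1.09 on HFD (edgeR unadjusted p of the difference 0.00134, DESeq2 adjusted p 0.00753). Slc25a10 had a log2 fold change of -1.92 on NCD and -0.04 on HFD (edgeR unadjusted p of the difference 0.00229, DESeq2 adjusted p 0.0192). These are the carriers described above, and both values were nearer to 0 on HFD. Like each gene below but Fasn and Gpd1, they were called on NCD. A value nearer to 0 on HFD can follow from that choice alone. Pfkfb3 had a log2 fold change of 1.23 on NCD and -0.08 on HFD (edgeR unadjusted p of the difference 0.00132, DESeq2 adjusted p 0.011). Igf1 had a log2 fold change of -1.60 on NCD and -0.13 on HFD (edgeR unadjusted p of the difference 0.000507, DESeq2 adjusted p 0.00423). Col5a2 had a log2 fold change of -1.31 on NCD and -0.01 on HFD (edgeR unadjusted p of the difference 0.00287, DESeq2 adjusted p 0.0456). Ccdc80 had a log2 fold change of -1.85 on NCD and -0.53 on HFD (edgeR unadjusted p of the difference 0.00118, DESeq2 adjusted p 0.0107). Fasn had a log2 fold change of -0.45 on NCD and -2.88 on HFD (edgeR unadjusted p of the difference 0.000109, DESeq2 adjusted p 6.7e-07). The value of Fasn was thus further from 0 on HFD. Gpd1 had a log2 fold change of 0.71 on NCD and -0.51 on HFD (edgeR unadjusted p of the difference 0.00148, DESeq2 adjusted p 0.0101). Of the 114 named genes checked, which leave out Ucp1 and Mfsd2a, these 8 are all that DESeq2 called, and none of the 8 passed edgeR's adjusted test. With the replicate block their edgeR adjusted p of the difference was 0.151 to 0.343.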

How the data were processed

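Total RNA-seq of iBAT covered 12 libraries of C57BL/6N mice, 3 for each combination of NCD or HFD with 22 °C or 4 °C, and groups and batches followed the sample labels. The authors trimmed reads (cutadapt) and assigned them to transcripts of GENCODE M22 and RNAcentral 5 on GRCm38 (salmon), and they deposited estimated counts per gene, as whole numbers and without normalization. The 6 NCD libraries held 17875415 to 46740702 counts, and their Spearman correlation within a group was 0.969 to 0.985 across genes. Whether counting used strand is not stated in the sources used here, so overlapping and antisense genes are uncertain. Genes encoded in mitochondrial DNA were not analysed here, so their share of counts was not computed.

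Genes were kept with filterByExpr (minimum count 10), normalized with TMM and tested with the quasi-likelihood test of edgeR 4.0.16 (R 4.3.3) in 1 fit of 4 group means over the 12 libraries (8 residual degrees of freedom), with Benjamini-Hochberg adjustment over all tested genes. The groups of genes came from 85 lists. Members and lists were chosen with earlier results of these data known, and lists are described by counts and medians without a test. Named genes were drawn from the called coding genes with the largest folds at a mean of at least 5 CPM without overlap, and from each list. In each list these were up to 3 called members per direction with the smallest adjusted p, and its most abundant member. Not every gene that met these rules is described, and Mfsd2a, with the largest rise among such coding genes (log2 fold change 6.78), is 1 of those left out. Apart from Ucp1 and Mfsd2a, 109 called genes are named, and 104 of them held their call in all 12 fits with 1 library left out. Of all called genes, 261 of 623 higher and 103 of 426 lower did, so the named genes were steadier than the calls as a whole. Genes whose printed promoters hold the motif of their list were added, and the genes set beside HFD were chosen after their values were seen. Promoters were those of RefSeq on GRCm38.p6, and gene coordinates those of GENCODE M21.

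The deviations of a library from its group mean were correlated between the 22 °C and 4 °C libraries of equal number (correlations of 0.219, 0.456 and 0.281), so replicate number was also fitted as a block. The pairing rests on these correlations alone, since its source is not stated. Other alternatives were DESeq2 1.42.0, its size factors, other filters, batch as a term, batch 1 alone, the NCD libraries alone, no minimum fold change and each library left out. A fit without both NCD libraries numbered 2 was chosen after seeing the data. The steps were tested on simulated data.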

Additional observations from a re-analysis of the deposited data

How the results depend on the processing

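The count of 1049 called genes, 623 higher and 426 lower, was within 1.5 times of its value with DESeq2's size factors (568 and 447), other filters (633 and 428, or 673 and 389), the NCD libraries alone (603 and 434), batch as a term (688 and 496) and no minimum fold change (793 and 449). DESeq2 gave 748 higher and 696 lower genes, and the replicate block 750 and 733, so that the lower count rose past that ratio in both. Batch 1 alone (replicates 1 and 2) called 352 genes, 234 higher and 118 lower, of which 323 were coding and 29 lncRNA genes, from 2 libraries per group. Without both NCD libraries numbered 2, which hold the most muscle RNA and whose removal was chosen after seeing the data, 168 genes were called, 131 higher and 37 lower, 150 of them coding and 18 lncRNA genes. With 1 library left out in turn, called genes numbered 490 to 1112 (fewest without NCD 22 °C replicate 3), higher genes 345 to 657, lower genes 145 to 465, coding genes 445 to 986 and lncRNA genes 44 to 124. Where a group then held 2 libraries, their spread was shared with the other groups. The test of a difference between diets called 0 genes in edgeR, 62 in DESeq2, 2 with the replicate block and 0 to 22 with 1 library left out. Among the named genes the pairing changed the call of Scd1 and no other. Over promoters of tested genes alone the share with the cAMP motif was 3.39%, with the estrogen-related receptor motif 0.347% and with the clock motif 11.4%. The share of counts from mitochondrial DNA genes and its alternative were not run, since these genes were not analysed here. Genes with few counts are limited by depth, and a library with 0 counts allows up to 3.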

Other observations

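Values of some of the lists not described above are given here. Of 46 tested genes of the cell cycle and proliferation 1 was higher, Tyms, thymidylate synthase, which went from 6.28 ± 0.318 to 11.2 ± 1.28 CPM (SD, n = 3; log2 fold change 0.83, SE 0.13, edgeR adjusted p = 0.0041), and its call held in all 12 fits with 1 library left out. Of 15 adipokines and complement genes of adipocytes 1 was lower (6.67% called, against 6.27% of all tested genes and 7.06% of coding genes). It was Serpina3c, at 8.21, 10.4 and 10.3 CPM at 22 °C and 1.95, 2.0 and 2.89 CPM at 4 °C (log2 fold change -2.06, SE 0.27, edgeR adjusted p = 0.00153). With the replicate block 3 of the 15 were lower. Without 22 °C replicate 1, 4 °C replicate 3, HFD 22 °C replicate 3 or HFD 4 °C replicate 1 2 of them were lower. Of 32 tested amino acid transporters 1 was higher, the exchanger subunit Slc3a2 given in the report, and 1 was lower. The fall of Mr1 given in the report was one from 31.4, 23.2 and 21.6 CPM at 22 °C and 7.45, 5.88 and 5.54 CPM at 4 °C (log2 fold change -2.01, SE 0.21, edgeR adjusted p = 0.000594).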
